A study of Rattus norvegicus with 18 samples.

Results

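The genes described here are 30 genes of cholesterol synthesis, its control, and cholesterol transport in rat dorsal root ganglion, the cluster of sensory neurons and glia beside the spinal cord.
They were taken by symbol from a count table of 25678 genes. Each of the 30 symbols matched 1 row, and all 30 were among the 17043 genes tested. They fall by role into 18 enzymes of synthesis, 7 regulators and 5 genes of transport and storage.
The study sequenced messenger RNA from 18 rat libraries, 3 in each of 6 groups, to follow Shentong Zhuyu decoction, a traditional Chinese medicine made from several herbs, in a model of neuropathic pain. The labels give each library a state and a treatment. Ctrl libraries had the control state and a treatment given only as control, and Ctrl_solvent libraries had the control state with solvent. Sham_solvent and Sham_herb had the sham state with solvent or herb, and NPP_solvent and NPP_herb the NPP state with solvent or herb, so that every group but Ctrl received solvent or the decoction. The strain, sex and age of the rats, the injury, the dose and the timing of sampling were not stated in the labels used here. Nothing in the labels ties each library to its own animal, so a p-value here reflects the spread among these libraries, whose source may be technical alone.

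Cholesterol is built from acetyl-CoA: the early enzymes make mevalonate and then farnesyl diphosphate, squalene is formed and closed into lanosterol, and a last series of enzymes trims lanosterol to cholesterol. When sterols are scarce, SCAP carries the SREBP transcription factors out of the endoplasmic reticulum and they switch on the genes of this route, while INSIG proteins hold SCAP back when sterols are plentiful. Oxysterols activate the liver X receptors, which raise export through ABCA1 and ABCG1. Myelin is rich in cholesterol, and the nervous system makes most of its cholesterol locally, in peripheral nerve largely in Schwann cells.

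Total reads assigned to genes ran from 18170925 to 50289652 per library, and the member with the fewest reads in any library still had 100. Replicates of a group differed by more than counting noise, with a chi-square per degree of freedom of at least 12.9. Markers of sensory neurons and myelinating Schwann cells were abundant in all 18 libraries, with summed levels of 19728 to 20116 and 10529 to 16008 CPM (reads scaled to the library total with TMM factors) in Ctrl. The lowest sums of the 18 libraries were 14647 and 9418 CPM, both in Ctrl_solvent replicate 3. Adipoq, Plin1, Mog and Alas2, markers of fat, oligodendrocytes and red cells, had 0 reads in at least 1 library. The other markers on those lists had reads in every library. The fewest were 27 for Cfd (fat), and 228, 85 and 9 for Gfap, Hapln2 and Aqp4 (oligodendrocytes and astrocytes). For the red cell genes Hba-a1, Hbb and Slc4a1 they were 32, 33 and 2. Red cell markers summed to between 2.93 and 616 CPM. Adipoq, Plin1 and Mog reached at most 0.326, 0.392 and 0.432 CPM in any library. Whether fat cells or oligodendrocytes were present therefore cannot be decided from these markers.
Some libraries stood apart. In Ctrl_solvent replicate 2, red cell markers summed to 561 CPM, against 9.36 and 2.93 CPM in replicates 1 and 3. Its macrophage markers summed to 147 CPM, against 500.2 and 445 CPM. Its log2 CPM correlated with those of replicates 1 and 3 at 0.973 and 0.972, the lowest values between replicates of any group. Ctrl replicates 2 and 3 had at most 1 read of each of the Y-linked genes Eif2s3y, Kdm5d and Uty, whereas the other 16 libraries had at least 95 reads of each. Libraries also differed in how level followed transcript length. This was measured as the slope, on log2 length, of log2 CPM less each gene's mean over the 18 libraries. The slope was -0.153, 0.0738 and -0.0776 in Sham_solvent replicates 1, 2 and 3, and 0.0540, 0.0786 and 0.0551 in Sham_herb. A negative slope means that long transcripts were low in that library relative to their mean over all 18. Of the members, 14 were longer than the median gene and 16 shorter. In tissue RNA, fewer cells of a type and less RNA per cell cannot be told apart.

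No member passed an adjusted p of 0.05 in any of the 7 tests below, each run over all 17043 genes with edgeR's quasi-likelihood test and Benjamini-Hochberg adjustment, and neither did any other gene. Between 319 and 2218 genes had an unadjusted p under 0.05, depending on the comparison. DESeq2 called 483 genes over the 6 groups, 471 for Ctrl_solvent against Ctrl, 36 for Sham_solvent against Ctrl_solvent and 2 for the interaction, none of them a member, and 0 in the other tests. Limma on log2 FPKM called 0 in every test. What follows are therefore levels and differences with their errors, none of them a called change.

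The stretches before the start sites are shown for 2 early enzymes, 1 late enzyme and 1 regulator. Mvk and Nsdhl are shown because they hold the box described next, at 5 matches each, more often than any other member with a promoter found. RefSeq promoters of the GRCr8 assembly were found for 25 of the 30 members. Capitals mark the letters CCAAT, the box bound by NF-Y, a factor that works beside SREBP, or its reverse complement. The Hmgcs1 stretch lies at chr2:53382054-53382303, plus strand, that of Mvk at chr12:47819504-47819753, minus strand, that of Nsdhl at chrX:155817110-155817359, plus strand, and that of Insig1 at chr4:8057770-8058019, minus strand. Each runs 5′ to 3′ along the gene and ends at the base before its start.
Hmgcs1: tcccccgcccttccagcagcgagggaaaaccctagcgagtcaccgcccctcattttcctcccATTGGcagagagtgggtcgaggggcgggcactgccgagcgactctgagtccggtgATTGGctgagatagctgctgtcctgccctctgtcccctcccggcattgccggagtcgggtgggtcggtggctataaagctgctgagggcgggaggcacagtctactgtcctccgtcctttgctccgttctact
Mvk: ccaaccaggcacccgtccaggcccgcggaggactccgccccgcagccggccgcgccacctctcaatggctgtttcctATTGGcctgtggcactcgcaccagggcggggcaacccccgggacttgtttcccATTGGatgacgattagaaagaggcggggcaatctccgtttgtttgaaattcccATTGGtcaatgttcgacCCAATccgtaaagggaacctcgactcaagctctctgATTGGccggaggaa
Nsdhl: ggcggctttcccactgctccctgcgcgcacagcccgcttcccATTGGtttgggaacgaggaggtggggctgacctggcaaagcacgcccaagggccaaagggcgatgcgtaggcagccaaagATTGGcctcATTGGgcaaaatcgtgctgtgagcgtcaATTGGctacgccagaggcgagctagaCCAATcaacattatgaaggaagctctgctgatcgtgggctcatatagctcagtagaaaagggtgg
Insig1: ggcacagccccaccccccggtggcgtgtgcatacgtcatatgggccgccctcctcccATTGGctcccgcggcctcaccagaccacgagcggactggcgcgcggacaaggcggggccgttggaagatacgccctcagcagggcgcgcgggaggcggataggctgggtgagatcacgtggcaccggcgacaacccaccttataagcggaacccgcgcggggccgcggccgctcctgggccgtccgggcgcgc
The Mvk and Nsdhl stretches each hold the box 5 times, that of Hmgcs1 2 times and that of Insig1 1 time. Over windows from 250 bases before to 50 after the start, both strands read, CCAAT was present in 17 of the 25 members (68%), against 37.5% of 33469 promoters in the table. Members were counted by gene, with a match in any promoter of the gene, and the share over all by promoter. By role it was present in 12 of 15 synthesis genes, 4 of 7 regulators and 1 of 3 transport genes. A single form of the sterol regulatory element, TCACNCCAC, was in none of the 25 windows and in 1.12% of all, which says only that these letters are not in these windows.

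Expressed per length, as FPKM, the members spanned a wide range of levels, with synthesis enzymes at the top. Fdps, farnesyl diphosphate synthase, had the highest mean FPKM, 318 over 18 libraries, followed by Hmgcs1 at 218, Cyp51 at 131, Msmo1 at 119.6 and Acat2 at 105. Insig1, the first regulator in the order, had a mean of 43.8 FPKM. The exporter Abca1 at 4.84, the ketoreductase Hsd17b7 at 4.60 and the liver X receptor alpha gene Nr1h3 at 2.61 FPKM closed the order. Neighbours in the middle of it overlapped over libraries: Insig1 ranged from 38.4 to 49.1 FPKM and Idi1 from 28.6 to 39.6 FPKM. The members' median SD of log2 CPM within groups was 0.14, against 0.22 for all genes tested and 0.17 for genes in the members' range of CPM. Mvd (0.29), Pmvk (0.27), Nr1h3 (0.26) and Ebp (0.24) varied more than the median gene.

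**Figure D1:**
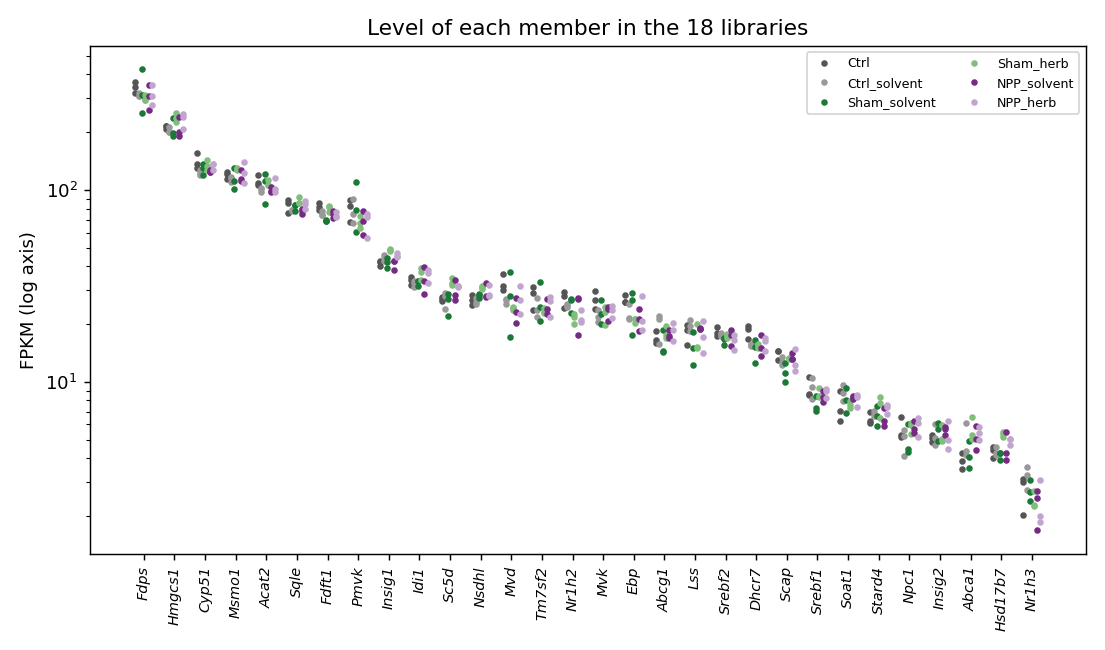
FPKM (log axis) of the 30 genes in each of the 18 libraries, ordered by mean and coloured by group. Fdps and Hmgcs1 lie highest and Nr1h3 lowest, and the groups overlap for most genes.

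The early enzymes, which carry acetyl-CoA to farnesyl diphosphate, are given first, with replicates 1, 2 and 3 in that order throughout. Hmgcs1, on chromosome 2, which makes HMG-CoA, was at 982, 931 and 991 CPM in Ctrl and at 882, 904 and 919 CPM in Ctrl_solvent. Sham Hmgcs1 values were 1129.7, 885 and 861 CPM under solvent and 1132, 1045 and 1020.3 CPM under herb. NPP Hmgcs1 values were 909, 857 and 1071 CPM under solvent and 1111, 1105 and 923 CPM under herb. All 3 Ctrl_solvent libraries lay below all 3 of Ctrl. Sham_solvent replicate 1 stood with the Sham_herb libraries while the other 2 of its group lay below them, and the NPP groups overlapped.
Mvk, on chromosome 12, encodes mevalonate kinase. It was at 58.0, 50.7 and 47.0 CPM in Ctrl and at 40.8, 45.4 and 37.9 CPM in Ctrl_solvent. Sham Mvk values were 53.8, 38.0 and 43.1 CPM under solvent and 44.2, 37.1 and 47.3 CPM under herb. NPP Mvk values were 47.1, 46.2 and 39.6 CPM under solvent and 40.6, 48.7 and 44.6 CPM under herb. The Ctrl libraries were the higher group, each above every Ctrl_solvent library, and the sham and NPP groups overlapped.
Pmvk, on chromosome 2, encodes the kinase of the next step. It was at 112, 118 and 92.8 CPM in Ctrl and at 118, 90.6 and 96.2 CPM in Ctrl_solvent. Sham Pmvk values were 157, 79.9 and 106 CPM under solvent and 98.9, 83.6 and 90.1 CPM under herb. NPP Pmvk values were 92.7, 104 and 77.7 CPM under solvent and 96.2, 104 and 74.1 CPM under herb. Sham_solvent replicate 1 was the highest of all 18 libraries and replicate 2 of the same group among the lowest, and no compared pair of groups was separate.
Fdps, on chromosome 2, was at 527, 487 and 461 CPM in Ctrl and at 445, 437 and 423 CPM in Ctrl_solvent. Sham Fdps values were 641, 355 and 442 CPM under solvent and 419.5, 412 and 446 CPM under herb. NPP Fdps values were 443, 501 and 367 CPM under solvent and 436, 516 and 385 CPM under herb. Here too the highest and the lowest library were both in Sham_solvent, replicates 1 and 2, and all Ctrl libraries lay above all Ctrl_solvent libraries.

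From squalene to cholesterol, the later enzymes gave the following levels. Sqle, on chromosome 7, encodes squalene epoxidase, a step that limits the rate of the route. It was at 192, 211 and 225 CPM in Ctrl and at 193, 198 and 188 CPM in Ctrl_solvent. Sham Sqle values were 221, 193 and 209.6 CPM under solvent and 232, 210.4 and 216 CPM under herb. NPP Sqle values were 188, 194 and 198 CPM under solvent and 208, 225 and 195 CPM under herb. Every compared pair of groups overlapped, and the lowest and highest library differed by less than for most members.
Lss, on chromosome 20, encodes lanosterol synthase. It was at 82.7, 103 and 99.0 CPM in Ctrl and at 94.5, 103 and 106 CPM in Ctrl_solvent. Sham Lss values were 67.7, 94.8 and 78.7 CPM under solvent and 79.8, 102 and 79.0 CPM under herb. NPP Lss values were 98.8, 99.6 and 98.3 CPM under solvent and 108, 75.8 and 87.6 CPM under herb. The 3 NPP_solvent libraries agreed closely and lay above all of Sham_solvent, whose replicate 1 was the lowest library.
Nsdhl, on chromosome X, encodes a sterol dehydrogenase of the trimming steps. It was at 97.4, 89.6 and 103 CPM in Ctrl and at 89.9, 97.9 and 90.3 CPM in Ctrl_solvent. Sham Nsdhl values were 107, 101 and 98.2 CPM under solvent and 112, 107 and 113 CPM under herb. NPP Nsdhl values were 101, 99.4 and 116 CPM under solvent and 100.4, 118 and 98.4 CPM under herb. The Sham_solvent libraries lay above all Ctrl_solvent libraries and below all Sham_herb libraries, in both cases by less than 1 CPM between the nearest values.
Hsd17b7, on chromosome 13, encodes a ketoreductase of the same steps. It was at 25.4, 21.6 and 24.5 CPM in Ctrl and at 22.4, 24.9 and 22.4 CPM in Ctrl_solvent. Sham Hsd17b7 values were 22.5, 23.0 and 23.4 CPM under solvent and 29.3, 27.7 and 30.1 CPM under herb. NPP Hsd17b7 values were 23.4, 21.4 and 29.6 CPM under solvent and 27.1, 28.4 and 25.1 CPM under herb. All 3 Sham_herb libraries lay above all 3 of Sham_solvent, and NPP_solvent replicate 3 stood as high as they did.
Sc5d, on chromosome 8, encodes the sterol desaturase near the end of the route. It was at 149, 152 and 153 CPM in Ctrl and at 131, 161 and 149 CPM in Ctrl_solvent. Sham Sc5d values were 129.6, 158 and 149.8 CPM under solvent and 178, 190.0 and 183 CPM under herb. NPP Sc5d values were 159, 148 and 187 CPM under solvent and 170.0, 181 and 172 CPM under herb. The Sham_herb libraries were again separate from and above Sham_solvent, and again NPP_solvent replicate 3 was as high.

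The other synthesis genes, given by range over the 18 libraries, were Acat2 (thiolase, 189 to 287 CPM), Mvd (mevalonate diphosphate decarboxylase, 31.6 to 74.1 CPM), Idi1 (isomerase, 91.5 to 125 CPM), Fdft1 (squalene synthase, 242 to 298 CPM) and Cyp51 (lanosterol demethylase, 390.0 to 519.7 CPM). Tm7sf2, a sterol reductase, ranged from 34.4 to 58.4 CPM, the methyl oxidase Msmo1 from 191 to 274 CPM, the sterol isomerase Ebp from 22.0 to 38.9 CPM and the reductase Dhcr7 from 37.9 to 59.4 CPM. Sham_solvent replicate 1 was the highest library for 6 of the 18 synthesis genes, namely Acat2, Pmvk, Mvd, Fdps, Tm7sf2 and Ebp, all shorter than the median gene. Replicate 2 of that group was the lowest library for 8 of the 18. Summed over the 18 genes, Sham_solvent was at 4153, 3185 and 3448 CPM and Sham_herb at 3879, 3674 and 3698 CPM, so that the widest spread of any group lay inside Sham_solvent. The Ctrl sums of 3717, 3805 and 3741 CPM all lay above the Ctrl_solvent sums of 3379.9, 3475 and 3364 CPM. In the NPP state the sums were 3443, 3493 and 3582 CPM under solvent and 3722, 4015 and 3369.6 CPM under herb, which overlapped.

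**Figure D2:**
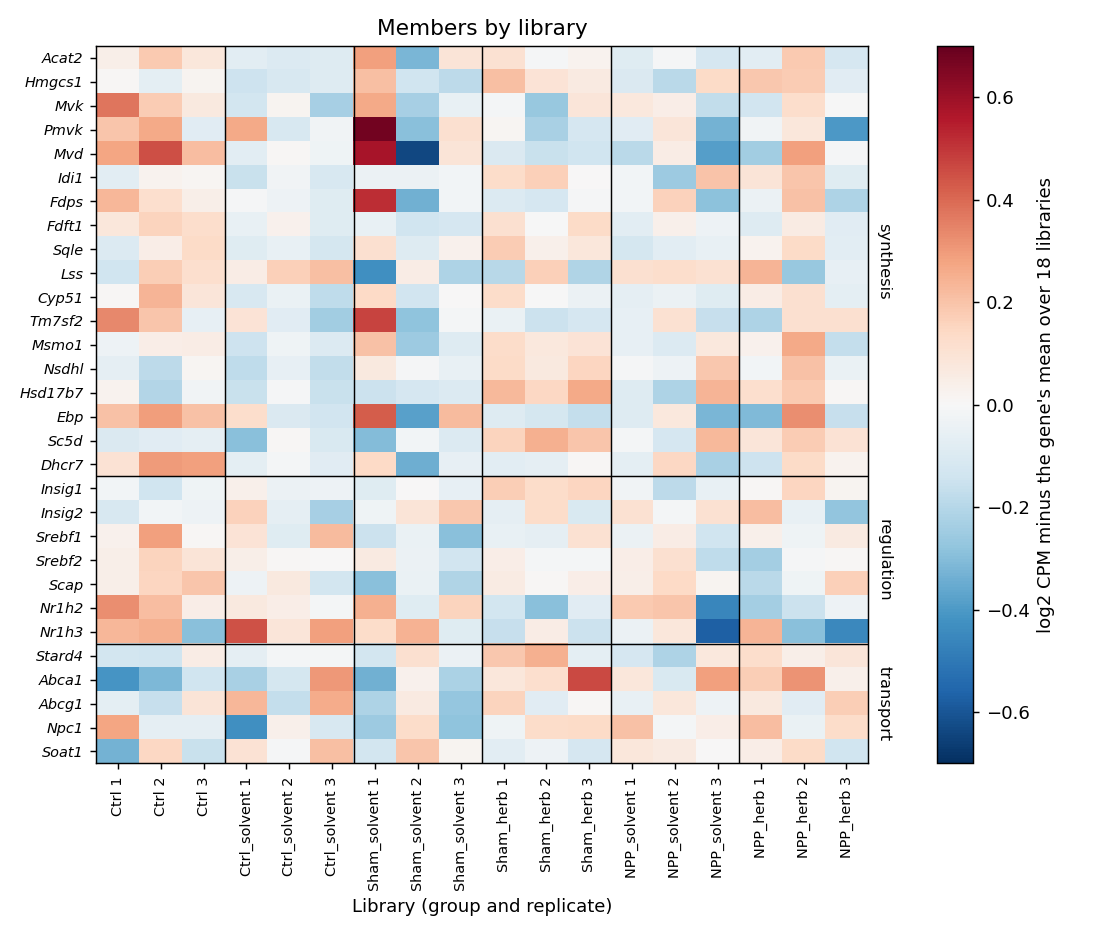
Deviation of log2 CPM from each gene's mean over 18 libraries (colour, log2 units), genes in rows by role and libraries in columns by group. The columns of Sham_solvent replicates 1 and 2 run in opposite directions for genes such as Pmvk, Mvd and Fdps, and the Ctrl_solvent columns are mostly below the mean among synthesis genes.

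Among the regulators, Insig1, which holds the SREBP escort back, had the tightest groups. On chromosome 4, Insig1 was at 183, 168 and 182 CPM in Ctrl and at 190.3, 180.3 and 181 CPM in Ctrl_solvent. Sham Insig1 values were 175, 186 and 179 CPM under solvent and 209, 203 and 206 CPM under herb. NPP Insig1 values were 183, 163 and 179 CPM under solvent and 187, 206 and 188 CPM under herb. Sham_herb lay wholly above Sham_solvent, and NPP_herb wholly above NPP_solvent.
Srebf2, on chromosome 7, encodes the SREBP that chiefly drives cholesterol synthesis. It was at 110.1, 119 and 114 CPM in Ctrl and at 110.2, 108 and 107 CPM in Ctrl_solvent. Sham Srebf2 values were 112, 104 and 97.4 CPM under solvent and 111, 106 and 106 CPM under herb. NPP Srebf2 values were 110.4, 116 and 94.5 CPM under solvent and 90.7, 106 and 108 CPM under herb. No compared pair of groups was separate.
Scap, on chromosome 8, encodes the escort of the SREBPs. It was at 63.4, 68.2 and 70.4 CPM in Ctrl and at 59.9, 64.6 and 56.3 CPM in Ctrl_solvent. Sham Scap values were 50.2, 59.6 and 53.0 CPM under solvent and 63.9, 62.0 and 63.5 CPM under herb. NPP Scap values were 63.4, 67.8 and 62.3 CPM under solvent and 53.9, 60.2 and 69.2 CPM under herb. Sham_solvent was low: all Sham_herb and all NPP_solvent libraries lay above it, and NPP_herb covered nearly the whole range.
Nr1h2, on chromosome 1, encodes liver X receptor beta. It was at 72.1, 66.9 and 59.4 CPM in Ctrl and at 60.4, 59.3 and 56.9 CPM in Ctrl_solvent. Sham Nr1h2 values were 68.3, 54.1 and 64.0 CPM under solvent and 52.5, 46.9 and 54.5 CPM under herb. NPP Nr1h2 values were 65.4, 65.8 and 41.8 CPM under solvent and 48.7, 51.8 and 56.1 CPM under herb. NPP_solvent replicate 3 was the lowest library, well under the other 2 of its group, and Sham_herb overlapped Sham_solvent only at the edge.
Nr1h3, on chromosome 3, encodes liver X receptor alpha, the form of macrophages and liver. It was at 8.25, 8.34 and 5.58 CPM in Ctrl and at 9.63, 7.38 and 8.57 CPM in Ctrl_solvent. Sham Nr1h3 values were 7.64, 8.29 and 6.52 CPM under solvent and 6.15, 7.21 and 6.21 CPM under herb. NPP Nr1h3 values were 6.73, 7.35 and 4.51 CPM under solvent and 8.27, 5.57 and 4.94 CPM under herb. These were the lowest levels of any member, and all compared groups overlapped. The remaining regulators Insig2, a second retention protein, and Srebf1, which encodes the SREBP of fatty acid synthesis, ranged from 16.2 to 23.0 CPM and from 34.8 to 52.1 CPM.

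For transport, Abca1 was the member with the widest separation of group means. Abca1, on chromosome 5, encodes the pump that loads cholesterol onto lipoproteins. It was at 41.9, 44.9 and 50.7 CPM in Ctrl and at 47.7, 51.2 and 69.0 CPM in Ctrl_solvent. Sham Abca1 values were 44.2, 57.0 and 47.9 CPM under solvent and 59.0, 60.6 and 77.1 CPM under herb. NPP Abca1 values were 59.2, 51.9 and 68.4 CPM under solvent and 63.0, 69.7 and 57.3 CPM under herb. Sham_herb lay wholly above Sham_solvent, and Ctrl held the lowest library. The partner exporter Abcg1 ranged from 57.6 to 83.4 CPM, Npc1, which frees cholesterol from lysosomes, from 23.5 to 38.6 CPM, Soat1, which esterifies it for storage, from 31.8 to 46.7 CPM, and the sterol carrier Stard4 from 34.9 to 48.5 CPM.

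**Figure D3:**
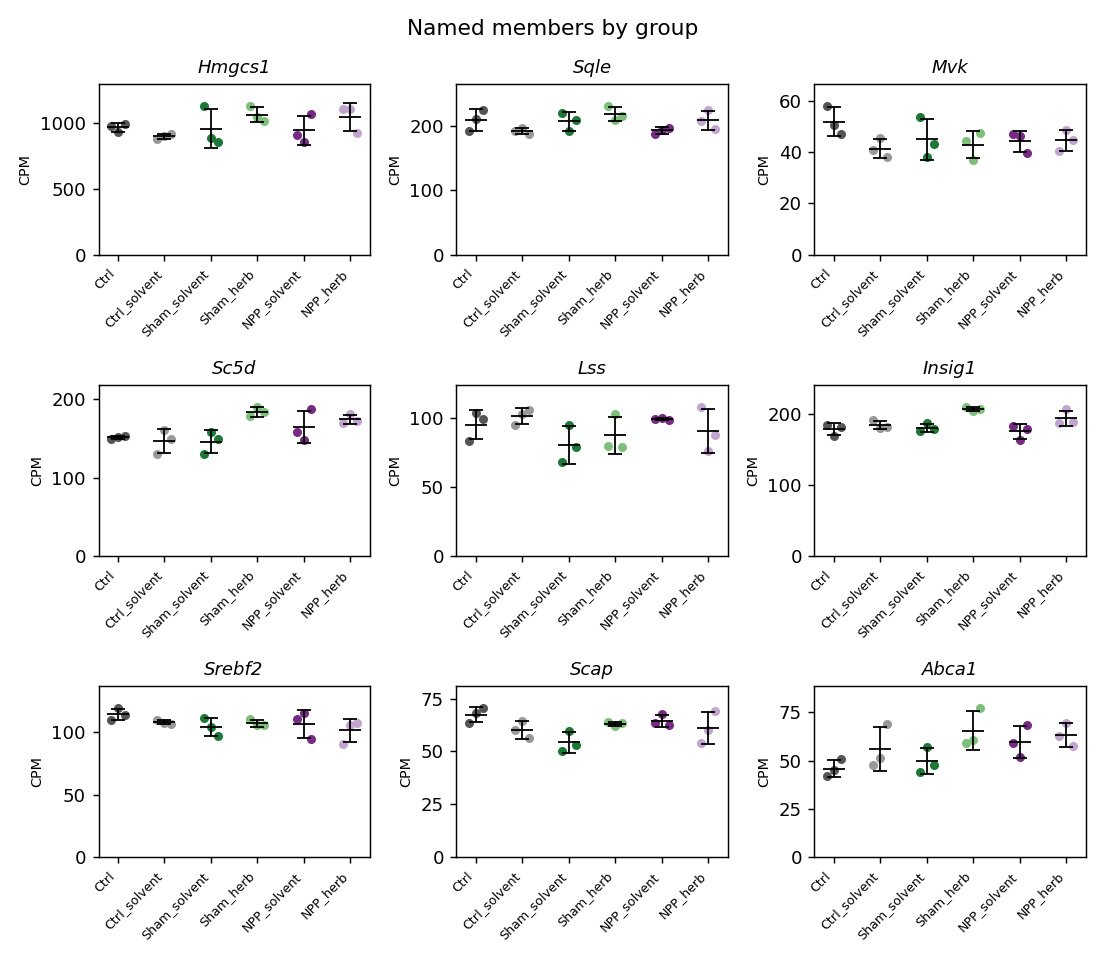
CPM (linear axis from 0) of 9 of the named genes in each library, by group, with mean and SD (n = 3). Insig1 and Sc5d are higher in all Sham_herb than in all Sham_solvent libraries, and Sham_solvent points are spread widely for Hmgcs1 and Lss.

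Over the 6 groups at once, the cholesterol genes varied little. Abca1 had the largest ratio between its highest and lowest group mean, 1.43, between Ctrl and Sham_herb, and Insig2 the smallest, 1.10. Synthesis genes were most often highest in Ctrl (9 of 18) or Sham_herb (7 of 18) and lowest in Ctrl_solvent (8 of 18). The edgeR quasi-likelihood test of any difference gave its smallest adjusted p among members for Sc5d (0.403), then Abca1 (0.431) and Hsd17b7 (0.488). Sc5d and Abca1 were the 2 of 30 members with an unadjusted p under 0.05, against 10.2% of all genes.

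Ctrl_solvent was compared with Ctrl first. Most Ctrl libraries lacked Y-linked reads, as described above, and no Ctrl_solvent library did. The groups may therefore differ in sex as well as in solvent, and this comparison cannot tell the effects apart. Of the 18 synthesis genes, 17 were lower in Ctrl_solvent than in Ctrl, with a median log2 fold change of -0.14, while 48.9% of all genes were lower and the median over all genes was 0.01. Mvk had the smallest p among the lower members (log2 fold change -0.33 ± 0.13 SE), followed by Cyp51 at -0.22 ± 0.09 and Dhcr7, the reductase that closes one branch of the route, at -0.29 ± 0.12. Lss was the exception, at 0.09 ± 0.14. Among regulators and transport genes 4 of 7 and 1 of 5 were lower, with medians of -0.03 and 0.16, and Abca1 was at 0.29 ± 0.15.

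None of these passed: edgeR's adjusted p was 0.312 for Mvk, 0.318 for Cyp51, 0.324 for Dhcr7 and 0.442 for Abca1. Those 3 synthesis genes were the members with an unadjusted p under 0.05 and a lower level, against 4.68% of all genes. For 9 synthesis genes (Acat2, Hmgcs1, Mvk, Mvd, Fdps, Fdft1, Cyp51, Ebp and Dhcr7) every Ctrl_solvent library lay below every Ctrl library, as it did for 8.15% of all genes. With 1 library left out in turn, 16 or 17 of the 18 synthesis genes stayed lower, but the count of 3 became 2, 1 and 2 without Ctrl replicates 1, 2 and 3, and 0, 4 and 0 without those of Ctrl_solvent. With Ctrl replicate 1 as the sole Ctrl library, since replicates 2 and 3 lacked Y-linked reads, 16 of 18 synthesis genes were lower and the median was -0.13. Ctrl replicate 1 and all Ctrl_solvent libraries had Y-linked reads, so they were alike in this. The values rest on 1 Ctrl library, and a solvent effect cannot be told from that library's own variation. With the length slope as a covariate, 17 of 18 were lower and 7 members had a lower level with an unadjusted p under 0.05, against 8.19% of all genes. Cell markers differed in the same comparison, none past the adjusted threshold. All 9 myelinating Schwann markers were lower, the summed level going from 10529 to 16008 CPM in Ctrl to 9418 to 12088 CPM, all 7 sensory neuron markers were lower, and all 8 macrophage markers were higher (71.6 to 129.8 against 147 to 500.2 CPM). Their part in the result was not tested.

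Sham against control, both under solvent, showed no shared direction that held. Of the synthesis genes, 13 of 18 were higher in Sham_solvent (median 0.11), as were 2 of 7 regulators (-0.05) and 2 of 5 transport genes (-0.07), against 48.4% of all genes. Without Sham_solvent replicate 1, 7 of 18 synthesis genes were higher and the median was -0.02. No marker passed the adjusted threshold, and all 9 of myelinating Schwann cells were higher (median 0.19; summed 10386 to 14849 CPM in Sham_solvent and 9418 to 12088 in Ctrl_solvent) and 7 of 8 macrophage markers were lower (median -0.84; 149 to 272 and 147 to 500.2 CPM). Their part in the result was not tested. Lss was lower, at -0.33 ± 0.14, and so was Srebf1, at -0.24 ± 0.11, with adjusted p of 0.744 and 0.762 in edgeR's test. These 2 members had an unadjusted p under 0.05 and a lower level, against 4.47% of all genes, and without Sham_solvent replicate 2 there were 3 such and 3 higher. Without Sham_solvent replicate 1 or 3, or Ctrl_solvent replicate 3, there was none, and without Ctrl_solvent replicate 1 there was 1. Nsdhl, at 0.14 ± 0.09 and an adjusted p of 0.904, was the 1 member with all Sham_solvent libraries higher, as for 3.02% of all genes.

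The pain model was compared with sham under solvent. Scap was higher in NPP_solvent (64.5 ± 2.89 CPM, SD, n = 3) than in Sham_solvent (54.3 ± 4.82 CPM), and Lss was higher as well, 98.9 ± 0.652 against 80.4 ± 13.6 CPM. Their log2 fold changes were 0.25 ± 0.10 and 0.30 ± 0.14 (SE). Pmvk had the smallest p among the lower members, at -0.32 ± 0.20. As groups, 8 of 18 synthesis genes, 3 of 7 regulators and 4 of 5 transport genes were higher, with medians of -0.02, -0.02 and 0.13, against 51.3% and a median of 0.01 over all genes.

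No member passed, with adjusted p of 0.755 for Scap, Lss and Pmvk alike in edgeR's test. Scap and Lss were the 2 members with an unadjusted p under 0.05 and a higher level (2.66% of all genes), and also the 2 whose NPP_solvent libraries all lay higher (4.44% of all genes). This count of 2 became 1 without NPP_solvent replicate 1 or 3, 0 without Sham_solvent replicate 1 or 3, and 5 higher and 4 lower without Sham_solvent replicate 2, where 19.7% of all genes had such a p. Without Sham_solvent replicate 1, 14 of 18 synthesis genes were higher. Direction went with transcript length: 10 of 14 longer members were higher and 5 of 16 shorter ones, against 69.6% of longer and 33.6% of shorter genes overall. With the length slope as a covariate, 24 of 30 members were higher, against 52.2% of all genes, 16 of the 18 synthesis genes among them, and Pmvk was at 0.016. The slope came from the same counts and was lowest in Sham_solvent replicate 1, so it was not independent of the groups compared. Among cell markers, 3 of 9 for myelinating Schwann cells, 3 of 7 for sensory neurons and 2 of 5 for satellite glia were higher. For macrophages (median 0.05), fibroblasts (-0.28) and red blood cells (-1.81) 6 of 8, 2 of 5 and 0 of 4 were higher. None passed the adjusted threshold, and their part in the result was not tested.

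Herb against solvent in sham animals gave the smallest p-values of the pairwise comparisons for these genes. Sc5d was at 184 ± 5.87 CPM (SD, n = 3) under herb and 146 ± 14.5 CPM under solvent, a log2 fold change of 0.33 ± 0.10 (SE, interval 0.12 to 0.55). Hsd17b7 was higher by 0.34 ± 0.11, Abca1 by 0.40 ± 0.15 and Insig1 by 0.19 ± 0.08. Other genes of the same roles were lower under herb: the late enzyme Ebp was at -0.26 ± 0.18, Tm7sf2 at -0.20 ± 0.16 and the retention protein Insig2 at -0.10 ± 0.13. Fdft1 and Scap were higher by 0.19 ± 0.08 and 0.22 ± 0.10. Nr1h2 had the smallest p among the lower members, at -0.28 ± 0.14. By role, 11 of 18 synthesis genes, 4 of 7 regulators and 4 of 5 transport genes were higher, with medians of 0.06, 0.04 and 0.17, against 50.7% and 0.01 over all genes. The synthesis median was -0.0067 without Sham_solvent replicate 2, and the regulation median -0.014 without Sham_solvent replicate 3.

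The adjusted p in edgeR's test was 0.491 for each of these 6 higher members and 0.497 for Nr1h2, so that none passed. They were the 6 of 30 members with an unadjusted p under 0.05 and a higher level, against 4.4% of all genes, and 0 members were lower with such a p. With Idi1 and Nsdhl they made up the 8 members whose Sham_herb libraries all lay higher, against 8.52% of all genes. The 6 became 3, 5 and 2 without Sham_herb replicates 1, 2 and 3, and 5 and 2 without Sham_solvent replicates 1 and 3. Without Sham_solvent replicate 2 there were 7 higher and 6 lower, and 24.4% of all genes had such a p. Length moved with this comparison too: 12 of 14 longer members were higher and 7 of 16 shorter ones, against 72.8% and 29.2% of all longer and shorter genes. With the length slope as a covariate, 25 of 30 members were higher, against 51.8% of all genes, and 17 of 18 synthesis genes, with a median of 0.17 for synthesis. In that fit 8 members had an unadjusted p under 0.05 and a higher level, against 1.42% of all genes, and none passed the adjusted threshold. The slope came from the same counts, and in Sham_solvent replicates 1 and 3 it was below that of every Sham_herb library. The fit therefore separates length from herb only in part. Of the markers, 5 of 9 for myelinating Schwann cells and 2 of 7 for sensory neurons were higher, and none of the 8 for macrophages (median -0.62), the 5 for fibroblasts (-0.30), the 4 for red blood cells (-2.60) or the 3 for skeletal muscle (-0.66). Fibroblast markers summed to 1015 to 1205 CPM in Sham_herb and 1413 to 1495 CPM in Sham_solvent, and red blood cell markers to 26.3 to 51.5 and 18.5 to 616 CPM. Their part in the result was not tested.

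**Figure D4:**
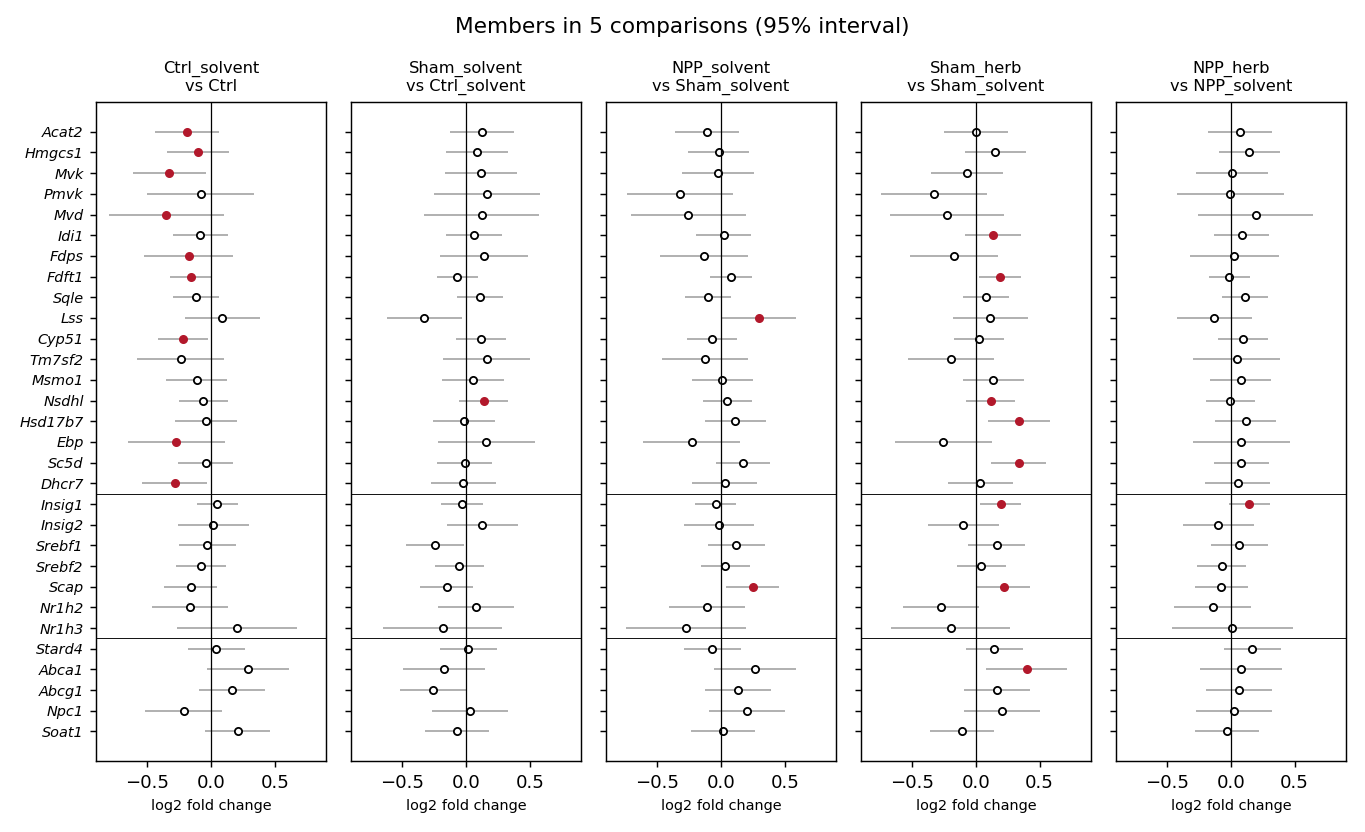
Log2 fold change of each of the 30 genes with its 95% interval in the 5 pairwise comparisons, red where all libraries of the groups are separate. Synthesis genes other than Lss lie left of 0 in Ctrl_solvent against Ctrl, and most red points are in that comparison and in Sham_herb against Sham_solvent.

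**Figure D5:**
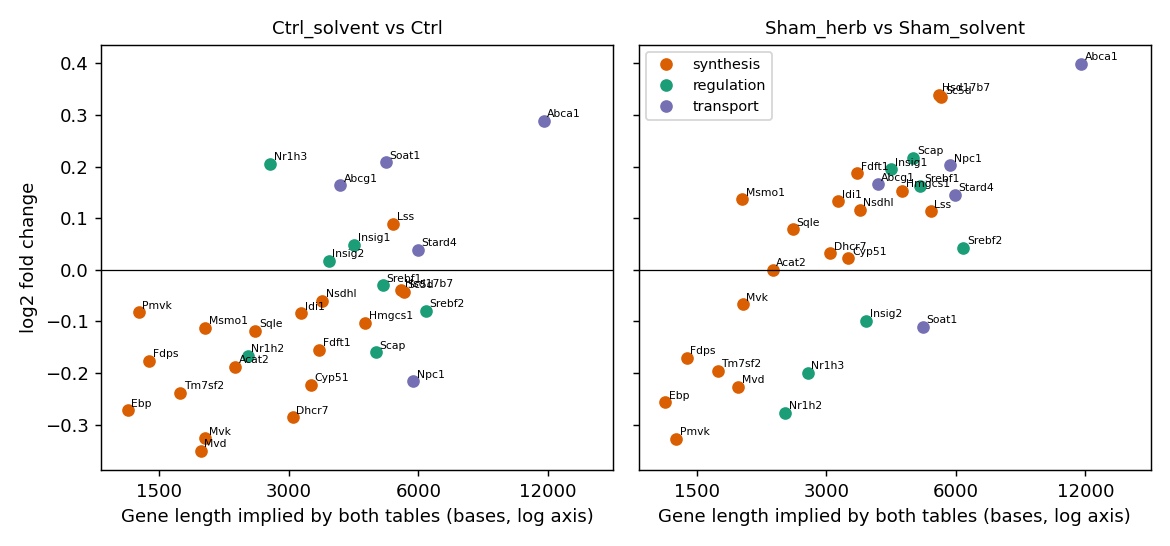
Log2 fold change of the 30 genes against transcript length in bases (log axis), coloured by role, for Ctrl_solvent against Ctrl and Sham_herb against Sham_solvent. Abca1, the longest, lies highest in both panels, and the short genes Ebp, Fdps and Mvd lie below 0 in both.

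Herb in the pain model, the treatment the study set out to follow, came with small differences. Insig1 was at 193 ± 10.7 CPM (SD, n = 3) in NPP_herb and 175 ± 10.3 CPM in NPP_solvent, a log2 fold change of 0.15 ± 0.08 (SE, interval -0.02 to 0.31). It was the 1 member whose NPP_herb libraries all lay higher, as for 2.69% of all genes. Hmgcs1 was at 0.15 ± 0.11, Sqle at 0.11 ± 0.09 and Stard4 at 0.17 ± 0.11. Nr1h2 had the smallest p among the lower members, at -0.14 ± 0.14. In all, 14 of 18 synthesis genes, 3 of 7 regulators and 4 of 5 transport genes were higher, with medians of 0.07, -0.07 and 0.06, against 47.7% of all genes. No member had an unadjusted p under 0.05, against 1.87% of all genes, and every adjusted p was 1.00 in edgeR's test. Without NPP_herb replicate 2, the library with 17 of 18 synthesis genes above their means, 7 of 18 were higher and the median was -0.01. Of the markers, 6 of 9 for myelinating Schwann cells, 4 of 5 for satellite glia and 4 of 4 for red blood cells (median 2.31) were higher. For macrophages (median -0.69), sensory neurons and fibroblasts 1 of 8, 1 of 7 and 1 of 5 were higher. None passed the adjusted threshold, and their part was not tested. Without NPP_solvent replicate 3, 3 members had an unadjusted p under 0.05, 2 of them higher.

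Whether the herb difference was unlike in the NPP and sham states was tested as an interaction, which shares its libraries with the comparisons above. Scap had the smallest p, with -0.29 ± 0.14 (SE) on the log2 scale: herb against solvent was -0.08 ± 0.10 in NPP and 0.22 ± 0.10 in sham. For Sc5d these were 0.08 ± 0.10 and 0.33 ± 0.10, and for Abca1 0.08 ± 0.15 and 0.40 ± 0.15. The adjusted p was 0.920 for each of the 3 in edgeR's test, and no member had an unadjusted p under 0.05, against 3.4% of all genes. The intervals of the difference, -0.77 to 0.13 for Abca1 and -0.55 to 0.05 for Sc5d, leave room for sizeable differences. Of the 18 synthesis genes 10 were above 0 (median 0.03), as were 15 of the 30 members. With the length slope as a covariate all 18 synthesis genes were below 0 (median -0.11), as were 27 of 30 members, against 53.1% of all genes. That fit uses the same Sham_solvent and Sham_herb libraries, so it too separates length from herb only in part.

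Of other genes of sterol and fatty acid metabolism, 42 were tested and none passed in any comparison. In Sham_herb against Sham_solvent 9 of the 42 had an unadjusted p under 0.05, all higher, where 4.4% of all genes were higher with such a p. Among them were the lipoprotein receptor Scarb1 at 0.32 ± 0.12 (SE), the citrate lyase Acly at 0.29 ± 0.11, and the fatty acid enzymes Fasn at 0.25 ± 0.11 and Scd2 at 0.31 ± 0.11. In NPP_solvent against Sham_solvent the count was 2, the fatty acid genes Fads2 at 0.21 ± 0.09 and Acaca at 0.30 ± 0.13, both higher, against 2.66% of all genes. In Ctrl_solvent against Ctrl 5 were higher, led by the oxysterol hydroxylase Cyp7b1 at 0.83 ± 0.27, and 3 lower, against 8.33% and 4.68% of all genes. Ch25h, which makes an oxysterol, was at 1.31 ± 0.47 there and at -1.28 ± 0.47 in Sham_solvent against Ctrl_solvent, which share the Ctrl_solvent libraries. Its level was low, and those libraries were widely spread, at 8.14 ± 5.73 CPM (SD, n = 3). Group means elsewhere lay between 2.12 CPM in Sham_herb and 3.32 CPM in Sham_solvent.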

How the data were processed

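Messenger RNA was captured from total RNA and sequenced as read pairs with a strand-marking kit, per the labels' protocols. HISAT2, DESeq2 and the build mRatBN7.2 are named for the authors' files, with no role, in the submitters' processing notes. For the counter, annotation and strand setting, the labels and headers name nothing (not given in the sources used here). Deposited tables hold raw counts and the authors' FPKM per gene. Levels are CPM with TMM scaling, or the deposited FPKM between genes. Counts were fitted with edgeR 4.0.16 (R 4.3.3), quasi-likelihood test, filterByExpr, all 18 libraries in 1 model with 12 residual degrees of freedom, and Benjamini-Hochberg adjustment over 17043 genes, threshold 0.05. Length was inferred per gene from count and FPKM, and the length slope was computed from the same counts that it was used to adjust. The fit was tested on simulated data: 200 of 200 genes changed by 3-fold were recovered in NPP_solvent against Sham_solvent, among 16663 genes, with 5 other calls. The simulated counts had a single fixed dispersion and no library differences such as the length slopes, and only well-read genes were changed. That recovery checks the code and does not show whether differences as small as those of the members could be called. Alternatives were DESeq2 1.42.0, limma 3.58.1 on log2(FPKM + 0.1), RLE scaling, no filter, a length slope covariate, a replicate block, only the groups compared, and each library left out. Values in every library are given for 6 anchor genes, the smallest p in each direction of each pairwise comparison, the 3 smallest in the 6-group test, the smallest interaction p, and the highest and lowest FPKM. The genes and lists were chosen with earlier results of these data known.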

Additional observations from a re-analysis of the deposited data

How the results depend on the processing

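Across the alternatives no member passed the threshold. Numbers of genes called, 0 in every test by edgeR as reported, became 483 (6 groups), 36 (Sham_solvent against Ctrl_solvent), 471 (Ctrl_solvent against Ctrl) and 2 (interaction) with DESeq2, and 1 in Ctrl_solvent against Ctrl without a filter on low counts and 1 with the length slope. Leaving out 1 library gave 0 to 319, 0 to 252, 0 to 734 and 0 to 1 in the same order, the largest without Ctrl_solvent replicate 2 in the first 3. With the length slope, the medians in Sham_herb against Sham_solvent became 0.17 (synthesis), 0.11 (regulation) and 0.046 (transport), synthesis in the interaction went from 0.028 to -0.11, and Pmvk in NPP_solvent against Sham_solvent reversed from -0.32 to 0.016. Medians with 1 library left out ran from -0.11 to 0.092 (synthesis), -0.042 to 0.080 (regulation) and 0.060 to 0.24 (transport) in NPP_solvent against Sham_solvent, -0.10 to 0.018 (regulation) in NPP_herb against NPP_solvent, -0.010 to 0.13 (synthesis) and -0.014 to 0.098 (transport) in the same, -0.0067 to 0.12 (synthesis), -0.014 to 0.086 (regulation) and 0.11 to 0.28 (transport) in Sham_herb against Sham_solvent, -0.023 to 0.16 (synthesis) and -0.16 to 0.025 (transport) in Sham_solvent against Ctrl_solvent, -0.092 to 0.029 (regulation) in Ctrl_solvent against Ctrl, and -0.050 to 0.11 (synthesis) and -0.22 to -0.020 (transport) in the interaction. The causes were not tested. Of the other values, 484 kept their direction and side of the threshold, stayed at 0 genes called, or moved by less than the replicate spread. Using Ctrl replicate 1 as the sole Ctrl library, an alternative chosen after seeing the data in which that library is assumed to vary like the other groups, called 0 genes.

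Of 45 pairs of same-numbered libraries, 12 had a correlation of their deviations over 0.1 (median 0.00725), against 29 of 90 pairs with other numbers. The correlations ran from -0.359 to 0.291 and from -0.385 to 0.396. The pairs reuse the same libraries and are not independent. Whether libraries of the same number share a batch or a pairing therefore cannot be decided from them. With a replicate block edgeR still called 0 genes in every test, the synthesis median was 0.05 in Sham_herb against Sham_solvent and -0.14 in Ctrl_solvent against Ctrl, and no call changed.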
